A study of Mus musculus with 5 samples.

Results

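MFOL1 is a population of myelin-forming oligodendrocytes of the mouse corpus callosum, taken here as every deposited cell that the authors labelled MFOL1. It held 274 of 2853 cells (9.60%). Of these, 175 came from the library of TdTom+ cells and 99 from the library of GFP+ cells. The animals were healthy mice at postnatal day 60 that carried Emx1::Cre together with Sox10::Cre-LoxP-GFP-STOP-TdTom, on a mixed background of CBA and C57BL/6. In these mice Emx1-Cre acts in the dorsal forebrain, so TdTom marks oligodendrocyte lineage cells of dorsal origin and GFP those of ventral origin, and the reporter itself is driven by Sox10. Callosal tissue from 2 mice was pooled before sorting, so each origin has 1 library and no spread between animals can be given. All differences are therefore described without a test, and every interval given covers counting error only, at 95%. 3 samples of spinal cord, of 5 in the series, were not analysed here.

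Oligodendrocyte precursor cells (OPCs) leave the cell cycle as committed precursors (COPs), pass through newly formed oligodendrocytes (NFOLs) and then become myelin-forming oligodendrocytes (MFOLs), the stage at which the cell wraps axons and turns out myelin membrane. Mature oligodendrocytes (MOLs) keep the sheath and support the axon, and fall into classes such as MOL2, rich in Klk6, and MOL5/6, rich in Ptgds, Apod and Car2. New oligodendrocytes still arise from precursors in the adult callosum, so cells of several stages are found there side by side.

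The 3 genes that mark MFOL1 were at their highest there among the 12 labelled populations. Levels are given as CPM, the unique molecular identifiers (UMIs) of a gene per 1000000 UMIs of the summed cells. Synpr, which encodes the synaptic vesicle protein synaptoporin, reached 64.3 CPM among TdTom+ MFOL1 cells and 62.4 CPM among GFP+ MFOL1 cells, from 53 and 27 UMIs, against 4.92 and 5.08 CPM in all other cells of the same libraries. The next population for Synpr was MOL6a, at 20.2 CPM. Slc9a3r2, whose product is a PDZ scaffold that ties membrane proteins to the actin cortex, was at 177 and 169 CPM against 27.1 and 21.9 CPM, and the next population was MFOL2. Ctps, the enzyme that makes cytidine triphosphate, was at 59.5 and 41.6 CPM against 8.25 and 6.66 CPM. The next population for Ctps was COP/NFOL, at 36.0 CPM from 5 UMIs, and there the intervals overlapped those of MFOL1 in both libraries. Without the 26 MFOL1 cells that held more than 8000 UMIs, Ctps was at 29.1 CPM in MFOL1, under COP/NFOL, whereas Synpr was at 59.1 and Slc9a3r2 at 109 CPM. Both libraries of MFOL1 lay above both libraries of the other cells for each of the 3 genes. The authors' clusters were built from the same expression values, so this describes the population and does not test it.

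**Figure D1:**
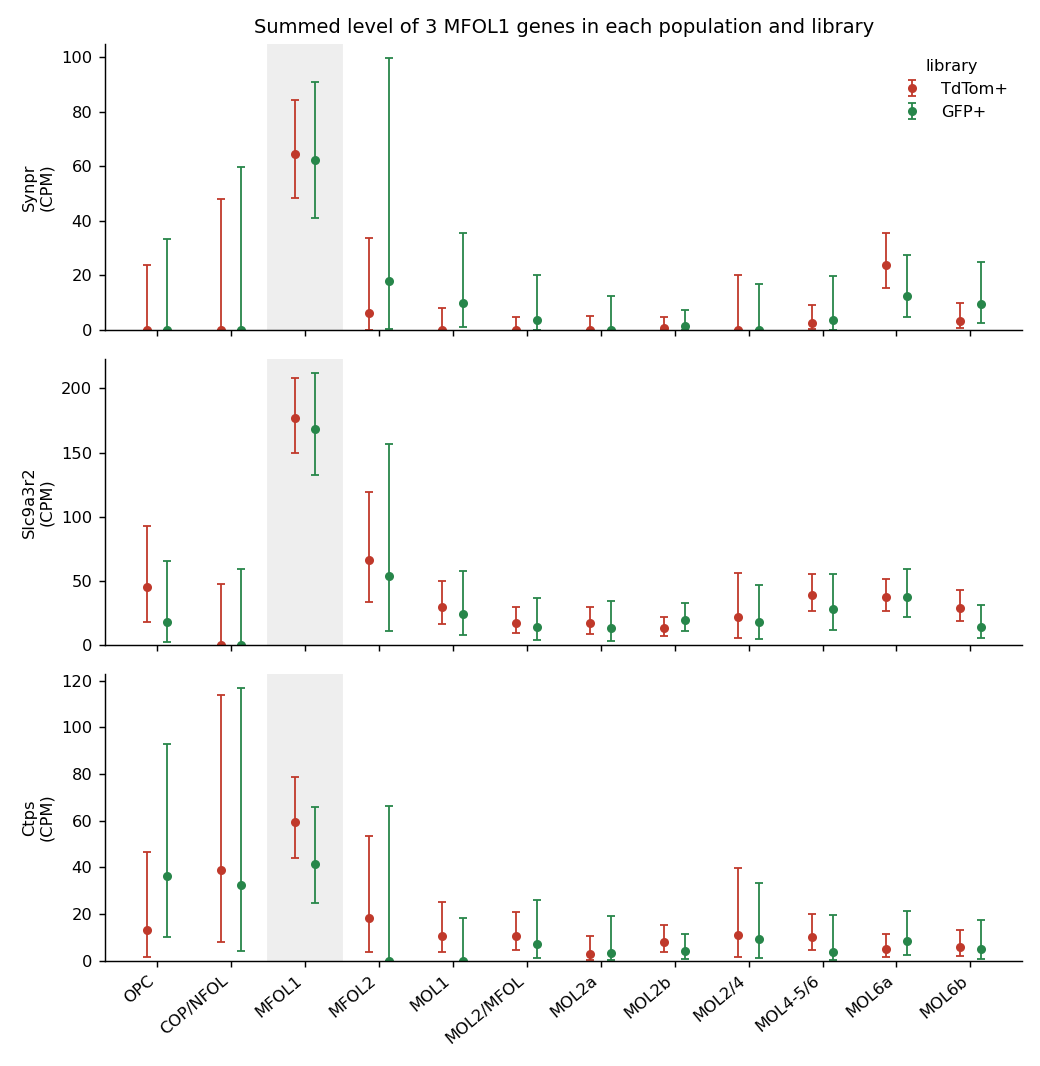
Level in CPM (vertical axes) of Synpr, Slc9a3r2 and Ctps in each of the 12 labelled populations (horizontal axes), with 1 point for each library and bars for the exact Poisson interval of the UMI count. MFOL1 (shaded) is highest for all 3 genes in both libraries, by the least margin for Ctps, and bars of thinly sampled populations such as COP/NFOL, OPC and MFOL2 overlap those of MFOL1 in some panels.

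The label was compared with 8 genes of myelin-forming cells, 3 of them the marker genes above, of which 7 were highest in MFOL1 and the other, Tmem163, ranked 3 in order, at 103 CPM, with COP/NFOL the highest at 1182 CPM. Since the clusters and the lists both drew on these expression values, this is a description. No marker of another stage was highest in MFOL1, that is, 0 of the 10 OPC, the 14 COP/NFOL, the 12 MOL1, the 5 MOL2 and the 14 MOL5/6 genes. The genes with the greatest ratio to all other cells, among those at 50 CPM or more in MFOL1, were Synpr (12.8-fold), Ctps (6.91-fold), Slc9a3r2 (6.87-fold), Thbs3 (6.63-fold), Kirrel3 (5.56-fold) and Pdxk (5.41-fold). Leaving out the cells above 8000 UMIs took the log2 ratio of Ctps from 2.64 to 1.79 and that of Slc9a3r2 from 2.73 to 2.06, and that of Synpr from 3.44 to 3.33. Thbs3 encodes a secreted thrombospondin, Kirrel3 a cell adhesion molecule of the immunoglobulin superfamily, and Pdxk the kinase that activates vitamin B6.

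In the GRCm38 build with GENCODE vM21 genes, Synpr spans chr14:13284780-13616340 on the plus strand, Slc9a3r2 chr17:24639286-24650327 on the minus strand and Ctps chr4:120539868-120570276 on the minus strand. Mal lies at chr2:127633226-127656695, Opalin at chr19:41061710-41077113 and Pdxk at chr10:78436744-78464975, all on the minus strand. These last 3 were among the myelin and metabolic genes at their highest in MFOL1, so the 250 bases before their RefSeq start in GRCm38.p6 are given, read on the minus strand from 5′ to 3′ at chr2:127656696-127656945, chr19:41077114-41077363 and chr10:78464949-78465198. Capitals mark the letters ACAANG, the core of SOX-type sites, which can overlap TCF/LEF-type sites, searched on both strands.
Mal: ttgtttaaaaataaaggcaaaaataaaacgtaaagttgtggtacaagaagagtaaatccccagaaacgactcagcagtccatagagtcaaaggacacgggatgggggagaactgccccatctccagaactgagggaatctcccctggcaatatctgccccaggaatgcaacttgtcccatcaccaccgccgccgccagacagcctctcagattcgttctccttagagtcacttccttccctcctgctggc
Opalin: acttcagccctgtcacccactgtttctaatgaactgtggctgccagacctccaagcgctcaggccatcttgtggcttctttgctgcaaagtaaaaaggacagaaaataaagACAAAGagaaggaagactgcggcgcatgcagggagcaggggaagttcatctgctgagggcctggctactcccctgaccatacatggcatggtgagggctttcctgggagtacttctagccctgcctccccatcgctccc
Pdxk: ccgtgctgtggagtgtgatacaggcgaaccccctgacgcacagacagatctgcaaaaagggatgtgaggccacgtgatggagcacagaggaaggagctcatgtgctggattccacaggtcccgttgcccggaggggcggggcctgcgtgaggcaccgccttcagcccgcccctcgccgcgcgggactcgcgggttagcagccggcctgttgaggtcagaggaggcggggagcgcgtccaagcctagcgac
Opalin held ACAANG once, 139 to 134 bases before the start, and Mal and Pdxk did not hold it. The letters CTGGNAC, a core bound by the oligodendrocyte factor MYRF, were in none of the 3 windows. Over all 32851 RefSeq windows of the same length, 36.3% held ACAANG and 16.1% held CTGGNAC, and a match describes letters, not a bound site.

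MFOL1 took a similar share of both libraries. It was 9.21% of TdTom+ cells (exact binomial interval 7.94 to 10.6%) and 10.4% of GFP+ cells (8.53 to 12.5%), and the intervals overlapped. TdTom+ cells made up 63.9% of MFOL1 (57.9 to 69.6%) and 66.6% of all cells. The libraries shared 1 barcode. The study's stated limits of at most 3000 genes and under 5% mitochondrial UMIs would leave 264 of the MFOL1 cells and 2820 cells in all, and all deposited cells were kept here.

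The depth of MFOL1 cells lay above that of all other cells pooled, while 5 of the 11 other populations, among them MOL2b and COP/NFOL, had a higher median. The MFOL1 median was 3762 UMIs in the TdTom+ library (range 2001 to 12138) and 3649 in the GFP+ library (range 1760 to 12856), against 3299 over all other cells and 2832 in MFOL2. The median MFOL1 cell had 1583 genes in the TdTom+ and 1573 in the GFP+ library, and 1.38 and 1.37% mitochondrial UMIs. 26 MFOL1 cells (9.49%) held more than 8000 UMIs, compared with 1.51% of all other cells, and these deep cells carried 20.6% of the UMIs of the population. They were 12.0% of TdTom+ and 5.05% of GFP+ MFOL1 cells. Values without them are given beside the counts of genes and beside the ratios of single genes against all other cells that moved by more than 1.5-fold.

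Since a gene is seen more often in a deep cell, each cell was thinned to 2000 UMIs before shares of cells were compared, which left out 1 MFOL1 cell. Synpr had a UMI in 27 of 273 thinned MFOL1 cells (9.89%, interval 6.62 to 14.1%) against 4.04% of MOL6a cells, and in 20.8% of MFOL1 cells before thinning. Slc9a3r2 was seen in 21.2% of thinned MFOL1 cells, compared with 7.85% of MOL4-5/6 and 7.69% of MFOL2 cells. Ctps was seen in 4.76% of thinned MFOL1 cells, 3.90% of OPCs and 3.08% of MFOL2 cells, so a difference from these was not detectable at this depth. In COP/NFOL, where Synpr and Slc9a3r2 had 0 UMIs, 1 of 19 thinned cells (5.26%) held Ctps. At least 1 of the 3 marker genes was seen in 86 of 273 MFOL1 cells (31.5%, 26.0 to 37.4%) and in 173 of 2554 other cells (6.77%). At least 2 of them were seen in 11 MFOL1 cells (4.03%) and in 1 of the 2554 others. Most single MFOL1 cells thus showed none of the 3 at this depth, whereas Opalin was seen in 94.5% of thinned MFOL1 cells, 94.8% of MOL6a cells and 73.8% of MFOL2 cells.

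Across genes, MFOL1 stood close to the other oligodendrocytes. Of the 2900 genes that averaged 50 CPM or more, 87.2% lay within 1.5-fold between MFOL1 and all other cells, and the median log2 ratio was -0.08. Ratios are on the scale of log2(CPM + 1). 103 genes (3.55%) were higher in MFOL1 by at least 1.5-fold in both libraries, and 165 (5.69%) were lower. Of the 103 higher genes, 72 had their highest level in MFOL1 among the 12 populations, and 101 did so when OPC and COP/NFOL were set aside. Of the 165 lower genes, 58 were lowest in MFOL1, and 140 were so without OPC and COP/NFOL. Without the deep cells 75 genes were higher and 137 lower, of which 70 and 125 were among those of all MFOL1 cells.

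**Figure D2:**
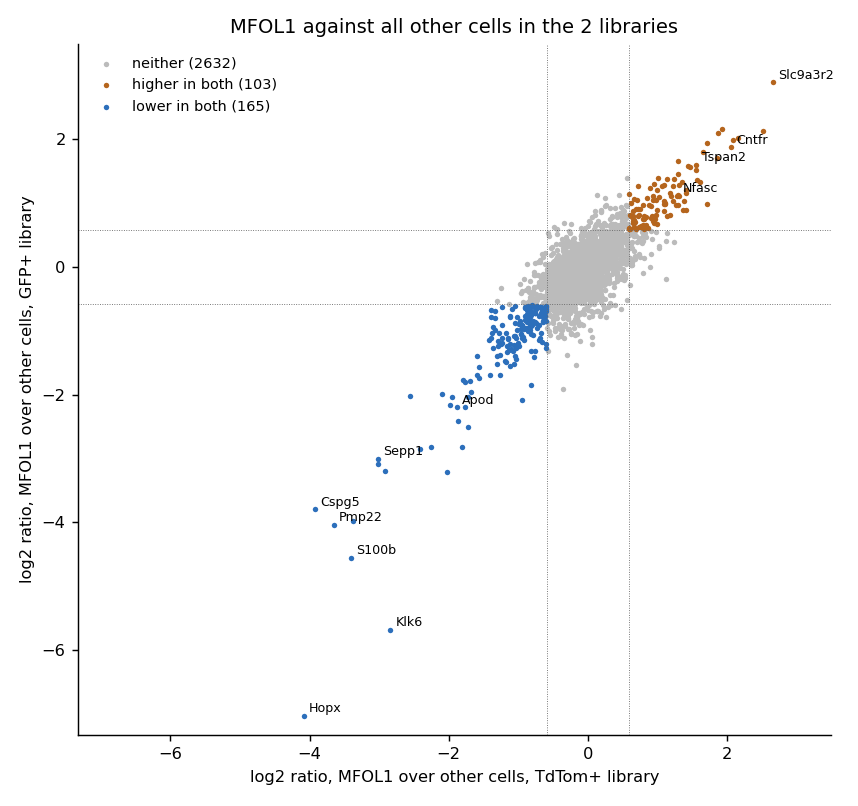
Log2 ratio of MFOL1 over all other cells in the TdTom+ library (horizontal axis) and in the GFP+ library (vertical axis), on the log2(CPM + 1) scale, with 1 point for each of 2900 genes and dotted lines at 1.5-fold. The 103 genes higher in both libraries extend to Slc9a3r2 and the 165 lower genes to Hopx, and for Hopx the GFP+ value depends on the added 1 CPM because MFOL1 had 0 UMIs there.

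Among the 2900 genes at a mean of 50 CPM, a filter that leaves out Synpr, Ctps, Thbs3 and Kirrel3, the 15 with the highest ratio were of mixed function. After Slc9a3r2 (log2 ratio 2.73) and Pdxk (2.39) came Prickle1, a planar polarity protein, at 104 and 97.1 CPM in TdTom+ and GFP+ MFOL1 cells against 22.7 and 23.2 CPM in other cells (log2 ratio 2.11). Cntfr, the receptor subunit for ciliary neurotrophic factor, was at 172 and 125 CPM against 40.6 and 33.3 CPM (2.00). For all of these, both MFOL1 libraries were above both libraries of the other cells.

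Arpc1b, a subunit of the Arp2/3 complex that branches actin filaments, was at 286 and 252 CPM in MFOL1 against 74.2 and 55.8 CPM in other cells (log2 ratio 2.00). Its log2 ratio was 1.37 without the deep cells and 1.09 when each other population had the same weight. Ttyh1, a membrane protein of the tweety family, was at 228 and 194 CPM against 61.5 and 44.4 CPM (1.94, or 1.29 at that weighting). Epas1, the hypoxia-inducible factor HIF-2 alpha, was at 104 and 113 CPM against 32.5 and 31.7 CPM (1.71). Others of the 15 were Hist1h1c (1.81), Tmem141 (1.81), Tspan2 (1.57), Plekha1 (1.54), Foxj1 (1.53), Grb14 and Serinc5. Grb14, an adaptor that binds the insulin receptor, was at 1456 and 1393 CPM against 523 and 470 CPM, and Serinc5, a multipass membrane protein, at 254 and 245 CPM against 84.7 and 94.5 CPM.

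Of the 15 genes with the lowest ratio, 8 were on the lists of other stages and classes. Hopx was at 4.85 and 0 CPM in MFOL1 against 98.3 and 129 CPM in other cells (log2 ratio -4.71), and Klk6, a secreted protease typical of MOL2, was at 18.2 and 6.93 CPM against 136 and 405 CPM (-3.89). S100b, a calcium-binding protein, was at 63.1 and 46.2 CPM against 681 and 1108 CPM (-3.82). Of the 18 Klk6 UMIs in MFOL1, 12 came from 1 cell, which also held 30 of the 72 S100b UMIs. Pmp22, a peripheral myelin protein, was at 21.9 and 20.8 CPM against 287 and 356 CPM (-3.79). Cspg5 (-3.87) and Enpp6 (-3.57), genes of precursors and of newly formed cells, were at 7.16 and 8.75 CPM over both libraries of MFOL1. Enpp6 was also lower than in MOL2/MFOL, with a log2 ratio of -4.20 against that label. Others among the lowest 15 were Spock3 (-3.04), Sepp1 (-3.01), Hapln2 (-2.56) and, on none of these lists, Plin3 (-3.01), Ldhb (-2.44), Cd59a (-2.40), Hcn2 (-2.33), Usp31 (-2.09) and Slco3a1 (-2.05). All 15 highest and 15 lowest genes stayed beyond 1.5-fold in both libraries when the deep cells were left out.

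Genes of the myelin sheath were on the whole somewhat higher in MFOL1. Of 20 structural myelin genes measured, 4 were higher by at least 1.5-fold in both libraries and 0 lower, with a median log2 ratio of 0.29 against -0.08 over all genes, of which 3.55% were higher and 5.69% lower. Mal, a proteolipid of compact myelin that carries other myelin proteins to the membrane, was at 7190 and 7457 CPM against 3050 and 2886 CPM in other cells (log2 ratio 1.28). Tspan2, a tetraspanin of the myelin membrane, was at 2364 and 2315 CPM against 801 and 763 CPM (1.57). Opalin, a sialylated glycoprotein of oligodendrocyte membranes, was at 1790 and 1844 CPM against 812 and 710 CPM (1.22). Nfasc, which includes the glial neurofascin that anchors the sheath beside the node, was at 668 and 541 CPM against 273 and 249 CPM (1.23). MFOL1 held the highest level of Mal and Tspan2 among the 12 populations, whereas Nfasc was higher in COP/NFOL, at 2862 CPM. Opalin was nearly as high in MOL6a, at 1673 and 1655 CPM, with counting intervals that overlapped those of MFOL1.

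Other main myelin genes differed less. Mobp, a basic protein of compact myelin, was at 4343 and 4143 CPM in MFOL1 against 3161 and 3207 CPM in other cells (log2 ratio 0.43), and Cldn11, the claudin of the tight junctions between myelin layers, at 5027 and 4799 CPM against 3785 and 3555 CPM (0.42). Mbp, which compacts the myelin membrane, was level, at 11169 and 11082 CPM against 11183 and 11137 CPM (log2 ratio -0.00). Mag, Mog and Cnp had log2 ratios of 0.26, 0.32 and 0.20. Summed over the 20 genes, myelin transcripts made up 92959 CPM of MFOL1 and 71380 CPM of all other cells. By the median single cell MFOL1 was not the highest population, at 77918 CPM against 81867 CPM in MOL2/MFOL and 83142 CPM in MOL2/4, whose sums were 83085 and 85890 CPM. The deep MFOL1 cells weigh more in the sum.

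Lipid synthesis feeds the growing sheath. Of 25 genes of cholesterol synthesis and uptake in the matrix, only 6 reached 50 CPM, and 0 of them were 1.5-fold higher or lower. Hmgcs1, which makes the precursor of mevalonate, was at 153 and 120 CPM in MFOL1 against 107 and 110 CPM, and Msmo1, a later sterol oxidase, at 123 and 146 CPM against 116 and 115 CPM. Of 16 genes of fatty acid and galactolipid synthesis tested, 2 were higher and 1 was lower by at least 1.5-fold in both libraries, against 3.55% and 5.69% of all genes. Acsl3, which activates long-chain fatty acids, was at 252 and 236 CPM against 118 and 115 CPM (log2 ratio 1.07), and the elongase Elovl6 was at 169 and 148 CPM against 106 and 95.5 CPM (0.65). Elovl5, an elongase of polyunsaturated fatty acids, was at 38.8 and 50.8 CPM against 120 and 136 CPM (-1.52), its lowest level among the 12 populations. Ugt8a, which makes galactosylceramide, had a log2 ratio of 0.09, and Fa2h, which hydroxylates its fatty acid, one of 0.12.

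**Figure D3:**
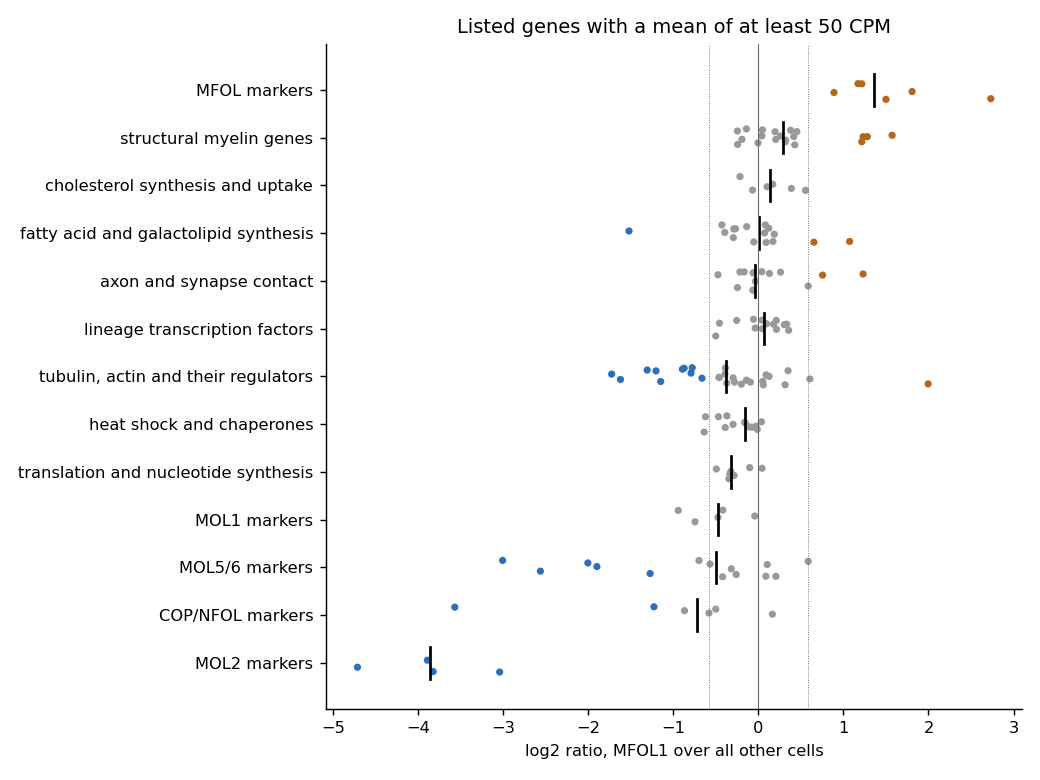
Log2 ratio of MFOL1 over all other cells on the log2(CPM + 1) scale (horizontal axis) for the tested members of each gene list (rows), with 1 point for each gene and the list's median as a bar. The 20 structural myelin genes have a median of 0.29, the 28 tubulin and actin genes one of -0.38, and the 14 MOL5/6 markers one of -0.49.

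Genes of the cytoskeleton lay more often on the lower than on the higher side against all other cells. Of 28 tubulin, actin and regulator genes tested, 10 were lower by at least 1.5-fold in both libraries and 1, Arpc1b, was higher, with a median log2 ratio of -0.38, while over all genes 5.69% were lower, 3.55% were higher and the median was -0.08. Tppp3, which bundles microtubules, was at 365 and 277 CPM in MFOL1 against 1086 and 925 CPM in other cells (log2 ratio -1.62). Tuba1a, a tubulin of growing cells, was at 534 and 571 CPM against 1283 and 1492 CPM (-1.31), and Sept8, a septin, at 98.3 and 94.7 CPM against 320 and 328 CPM (-1.72). Actb, the cytoplasmic actin, was at 876 and 952 CPM against 1375 and 1536 CPM (-0.66). The other 6 lower genes were Tuba1b, Tubb5, Map1b, Pfn2, Dynll1 and Fez1. Tubb4a, the tubulin of mature oligodendrocytes, had a log2 ratio of 0.05. Against MOL4-5/6, MOL6a and MOL6b, the labels closest to MFOL1, 3 of 28 of these genes were lower and 3 were higher, with a median of -0.13.

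Among lineage transcription factors, 0 of 14 were 1.5-fold higher or lower, with Olig1 at a log2 ratio of 0.21, Olig2 at 0.10, Myrf at 0.05 and Nkx6-2 at -0.04. Counts were also 0 of 13 heat shock and chaperone genes and 0 of 7 genes of translation and nucleotide synthesis, with medians of -0.16 and -0.32. In lists this short a count of 0 lies near the shares over all genes, 3.55% higher and 5.69% lower. Of 79 ribosomal protein genes and 74 genes of the respiratory chain and ATP synthase, 0 were 1.5-fold higher or lower, with medians of -0.17 and -0.14. Of 13 genes of contact with axons and synapses, Nfasc and Lpar1, a receptor for lysophosphatidic acid, were higher, and 0 were lower. Lpar1 was at 637 and 552 CPM against 362 and 355 CPM (log2 ratio 0.76). Foxj1, better known from ciliated ependymal cells, was at 109 and 83.2 CPM against 34.9 and 32.4 CPM, and it was the only one of the 5 ependymal markers in the matrix, so the presence of such cells was not tested.

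Markers of the mature MOL5/6 class were present in MFOL1 but at uneven levels. 5 of 14 were lower than in all other cells by at least 1.5-fold in both libraries, and 0 were higher, with a median log2 ratio of -0.49, against 5.69% lower, 3.55% higher and a median of -0.08 over all genes. Sepp1, a selenium carrier, was at 154 and 194 CPM, Apod, a lipid-binding apolipoprotein, at 471 and 534 CPM, and Trf, the iron carrier transferrin, at 1153 and 1421 CPM, against 1355, 1978 and 3008 CPM over all other cells. Anln, a regulator of septins, was at 138 and 109 CPM and Hapln2, a link protein of the nodal matrix, at 95.9 and 76.3 CPM, against 480 and 531 CPM. Ptgds, the prostaglandin D synthase, ran the other way, at 11203 and 13310 CPM against 7944 CPM in all other cells, but below the 15297 CPM of the 3 MOL5/6 labels together. Sepp1 and Hapln2 were highest in MOL2/4, at 3150 and 1165 CPM. In the 3 MOL5/6 labels Sepp1 was at 655 (TdTom+) and 712 CPM (GFP+) and Apod at 1164 and 1392 CPM. Both lay below their levels over all other cells, which include the MOL2 labels. All 4 tested MOL2 markers were lower, with a median of -3.86, and their summed level was 114 CPM in MFOL1 against 1494 CPM in all other cells, a sum that includes the MOL2 labels. Against MOL4-5/6, MOL6a and MOL6b, where the sum was 246 CPM, 2 MOL2 markers were tested and 1, Spock3, was lower. 0 of 5 tested MOL1 markers were 1.5-fold higher or lower.

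Few transcripts of microglia, neurons and endothelial cells were found in MFOL1. Over all 274 cells, 6 microglial markers gave 2 UMIs, with Aif1, C1qa, Csf1r and Cx3cr1 at 0, 7 neuronal markers gave 2 UMIs and 5 endothelial markers gave 1. 8 astrocyte markers gave 155 UMIs, or 112 and 146 CPM in the TdTom+ and GFP+ MFOL1 cells against 242 and 233 CPM in other cells, and no MFOL1 cell held as many as 3 of these genes. The 10 OPC markers gave 115 UMIs and 1 MFOL1 cell held at least 3 of them. The 14 COP/NFOL markers gave 602 UMIs, or 479 CPM against 844 CPM in other cells, and 56 MFOL1 cells held at least 3 of them. The other cells include COP/NFOL itself, at 13213 CPM. The sum was 545 CPM in MOL4-5/6, 462 CPM in MOL6a and 552 CPM in MOL6b. Cells with at least 3 of these markers were not counted in other populations. Of 16 cell cycle genes, 6 had 0 UMIs in MFOL1, among them Top2a, Cdk1 and Ccnb1. The other 10 gave 286 UMIs in 147 cells, or 228 CPM against 308 CPM in other cells, and 7 MFOL1 cells held at least 3 of the genes. These 10 include the cell cycle inhibitors Cdkn1a and Cdkn1c, so the 147 cells are not a count of dividing cells.

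By correlation MFOL1 was most like the mature MOL5/6 labels. Across 2900 genes, the Pearson correlation of log2 CPM with MFOL1 was 0.946 for MOL4-5/6, 0.945 for MOL6b and 0.942 for MOL6a, then 0.919 for MFOL2, 0.895 for MOL1, 0.888 for MOL2b, 0.865 for MOL2/MFOL, 0.860 for MOL2a, 0.755 for MOL2/4, 0.542 for COP/NFOL and 0.505 for OPC. By the median size of the log2 difference the order was not the same, with MOL6b nearest at 0.22, then MOL2b at 0.23, MOL4-5/6 at 0.24 and MOL6a at 0.26. These values describe genes within the same 2 libraries, and the smaller populations, such as the 65 MFOL2 cells, carry more counting error, which lowers a correlation. When the cells were clustered again from the UMI counts without integration of the libraries, MFOL1 did not form 1 cluster of its own. 142 of its cells (51.8%) were in a cluster of 234 cells, 60 (21.9%) in a cluster of 574 led by MOL6b, 29 (10.6%) in a cluster of 30 cells and 22 (8.03%) in a cluster led by MOL6a. The cluster of 30 cells held 22 of the 26 deep MFOL1 cells, and its MFOL1 cells had a median of 9595 UMIs.

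Against the 3 labels it resembled most, MOL4-5/6, MOL6a and MOL6b summed, MFOL1 had 83 of 2849 genes (2.91%) higher and 95 (3.33%) lower by at least 1.5-fold in both libraries. In the TdTom+ library alone 144 were higher and 181 lower, and in the GFP+ library alone 166 and 237. Without the deep MFOL1 cells 56 were higher and 64 lower in both. Slc9a3r2 (log2 ratio 2.37), Thbs3 (1.99), Pdxk (1.96), Shisa8 (1.94), which encodes a transmembrane protein of a family that binds AMPA receptors, and Arpc1b (1.77) had the highest ratios. Without the deep cells the MFOL1 level fell from 174 to 109 CPM for Slc9a3r2 and from 275 to 177 CPM for Arpc1b. For Pdxk it fell from 138 to 116 CPM. Marcksl1, an actin-linked protein of growing processes, was at 516 and 453 CPM in MFOL1 against 161 and 136 CPM in the 3 labels (1.68). In the same cytoskeleton list, Tmsb10 and Arpc1b were also higher and Tppp3, Map1b and Sept8 were lower. 5 of 6 tested genes of myelin-forming cells were higher, and 3 of 20 structural myelin genes, which were Mal, Tspan2 and Nfasc. Hmgcs1 (1.07) and Msmo1 (0.81) were also higher, and the median of the 6 cholesterol genes was 0.42. On the lower side, 8 of 14 MOL5/6 markers were lower, namely Car2, Il33, Apod, Trf, Sepp1, Anln, Hapln2 and Pex5l, and the lowest ratios over all genes were those of Pmp22 (-2.58), Spock3 (-2.22), Sepp1 (-1.99), Hcn2 (-1.90) and Gstm1 (-1.74).

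MFOL2, the other population named for myelin formation, was compared without 1 cell that held 84 microglial UMIs. Of 2952 genes, 110 (3.73%) were higher in MFOL1 and 191 (6.47%) were lower by at least 1.5-fold in both libraries. In the TdTom+ library alone 263 were higher and 451 lower, and in the GFP+ library alone 558 and 627. Without the deep MFOL1 cells 87 were higher and 173 lower in both. Plekha2 (log2 ratio 3.24), Shisa8 (2.49), Prickle1 (1.84), Thbs3 (1.78) and Cebpg (1.69), a bZIP transcription factor, had the highest ratios. These were ordered by the ratio over both libraries together, whether or not a gene was called. The 65 MFOL2 cells, 19 of them GFP+, carry more counting error than MFOL1. Mal, Opalin and Tspan2 were higher than in MFOL2, with log2 ratios of 1.12, 0.75 and 1.29, and Apod, Trf, Sepp1, Anln and Hapln2 were lower. The lowest ratio not carried by a few cells was that of Pmp22 (-3.40), with 51 UMIs in 29 MFOL2 cells. Sox11 had 0 UMIs in MFOL1 and 23 in MFOL2, of which 22 came from 1 cell, and the 22 Ptprz1 UMIs of MFOL2 came from 2 cells.

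**Figure D4:**
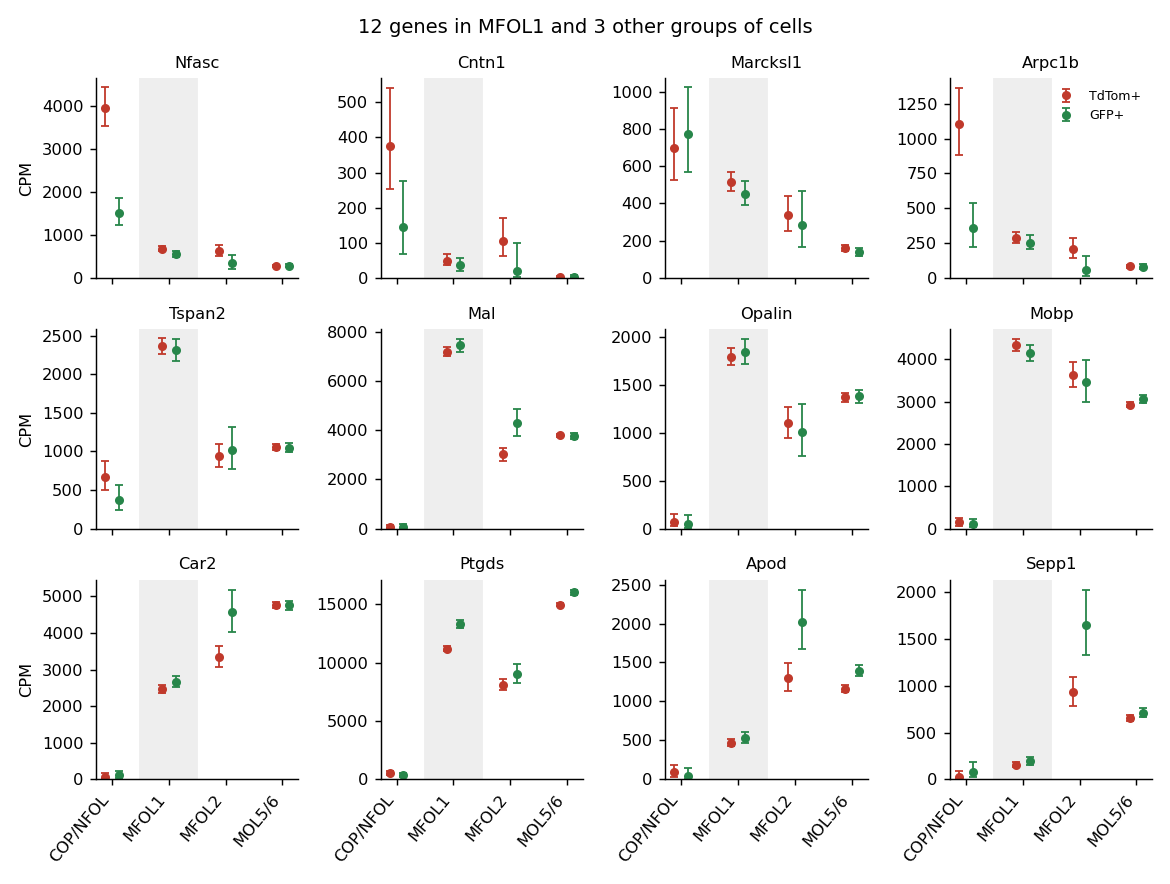
Level in CPM (vertical axes) of 12 genes in COP/NFOL, MFOL1, MFOL2 and the 3 MOL5/6 labels together (horizontal axes), with 1 point for each library and bars for the exact Poisson interval. Nfasc, Cntn1, Marcksl1 and Arpc1b are at their highest in COP/NFOL, Tspan2, Mal, Opalin and Mobp in MFOL1 (shaded), Car2 and Ptgds in the MOL5/6 labels, and Apod and Sepp1 in MFOL2.

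COP/NFOL, the 19 cells at the entry to differentiation, were far from MFOL1. Of 3365 genes, 438 (13.0%) were higher in MFOL1 and 954 (28.4%) were lower by at least 1.5-fold in both libraries, and the median log2 ratio was -0.38. The counts were 717 and 1312 in the TdTom+ library alone, 767 and 1480 in the GFP+ library alone, and 434 and 954 without the deep MFOL1 cells. Scaling by the median of ratios in place of the total moved the log2 ratios by a median of 0.22, and 625 genes were then lower. Against the floor of 3 UMIs over the COP/NFOL cells, where they had 0 UMIs, MFOL1 was at least 28.0-fold higher for Pdlim2, 15.6-fold for Prr18, 12.4-fold for Pde8a, 10.9-fold for Hepacam and 10.5-fold for Cdc42ep2. Neu4, a sialidase, and Mycl, a MYC family factor, had 0 UMIs in MFOL1, and were at least 260-fold and 202-fold lower there. Marcks, Bcan and Rtn1, at 2941, 959 and 1550 CPM in COP/NFOL, were at 6.37, 1.59 and 3.18 CPM in MFOL1.

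By stage, 13 of 14 COP/NFOL markers were lower in MFOL1 than in COP/NFOL, and 13 of 13 tested MOL5/6 markers were higher, against 28.4% of all genes lower and 13.0% higher. 10 of 20 structural myelin genes were higher and 3, Cd9, Gjc3 and Nfasc, were lower. 6 of 13 tested cholesterol genes were lower and 0 were higher, with Hmgcs1 at 142 CPM in MFOL1 against 267 CPM in COP/NFOL. Among 2611 genes tested against both COP/NFOL and the MOL5/6 labels, 18 were lower in MFOL1 than in COP/NFOL and higher than in the MOL5/6 labels, and 25 were the reverse. 34 were higher in MFOL1 than in both, and 18 were lower than in both. Nfasc was 1 of the first 18, at 3953 (TdTom+) and 1504 CPM (GFP+) in COP/NFOL, 624 CPM in MFOL1 and 269 CPM in the MOL5/6 labels. The COP/NFOL cells also had a higher median depth, 8215 UMIs, and the part of depth in these values was not tested.

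MOL2/MFOL, a label that joins MOL2 with myelin formation, had all 5 MOL2 markers higher than MFOL1. Of 2915 genes, 192 (6.59%) were higher in MFOL1 and 420 (14.4%) were lower by at least 1.5-fold in both libraries, or 174 and 399 without the deep MFOL1 cells. In the TdTom+ library alone 294 were higher and 578 lower, and in the GFP+ library alone 424 and 638. Epas1 (log2 ratio 3.34), Slc9a3r2 (3.32), Pdxk (3.26) and Prickle1 (3.26) were among the highest ratios and Hopx (-5.13), Klk6 (-4.61), Pmp22 (-4.31), Enpp6 (-4.20) and Anxa5 (-4.05) the lowest. Synpr was at 0.971 CPM in MOL2/MFOL, 1 UMI in all, and all 6 tested genes of myelin-forming cells were higher in MFOL1.

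Across the 12 populations, the genes whose level followed that of Synpr most closely, of 5749 compared, were Thbs3 (Pearson r = 0.965), Slc9a3r2 (0.950), Pdxk (0.942), Tspan2 (0.936) and H2afj (0.904). These are 12 points from the same 2 libraries, and MFOL1, the highest for Synpr, weighs heavily in each value.

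Within MFOL1, cells of dorsal and ventral origin differed in few genes. Of the 1451 genes that averaged 100 CPM or more, 98.5% lay within 1.5-fold between the TdTom+ and GFP+ MFOL1 cells, and the Pearson correlation across genes was 0.983. 12 genes (0.827%) were higher by at least 1.5-fold in TdTom+ and 10 (0.689%) in GFP+ cells. Without the deep cells these counts were 19 and 18. Sox10, the factor whose regulatory sequence drives the reporter in these mice, was at 993 and 631 CPM (log2 ratio 0.65, interval 0.45 to 0.86), and in all other cells it was at 1031 and 647 CPM (0.67). Polr2f, which overlaps Sox10 in the genome had a log2 ratio of -0.77 in MFOL1 and -0.56 in other cells. How the counting split reads of these overlapping genes is not stated in the study's methods.

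The highest log2 ratios of TdTom+ over GFP+ MFOL1 cells were those of Rfc1 (0.80), a replication factor subunit, Top1 (0.75), a topoisomerase, Rtf1 (0.74), a transcription elongation factor, mt-Nd3 (0.73) and Zfp365 (0.66). Rfc1 was at 137 and 78.6 CPM (interval of the log2 ratio 0.24 to 1.40), and its ratio in the other cells was -0.08. The lowest were Junb (-0.92), an AP-1 factor, Fcho2 (-0.80), Polr2f, Plekhj1 (-0.73) and Mrpl54 (-0.73). Junb was at 91.0 and 173 CPM (-1.41 to -0.45) and its ratio in other cells was 0.19, but 30 of its 75 UMIs in GFP+ MFOL1 came from 1 cell, and without that cell its level there was 106 CPM and its log2 ratio -0.22. Leaving out for each gene the cell with most of its UMIs, 7 of the 12 higher and 6 of the 10 lower genes stayed past 1.5-fold. Of the 12 higher genes 6 had a ratio above 0 in the other cells too, and of the 10 lower genes 8 were below 0 there. Olig1 (0.05), Olig2 (-0.31, interval -0.67 to 0.06), Myrf (0.15) and Nkx6-2 (-0.04) did not reach 1.5-fold, and neither did Synpr (0.04), Slc9a3r2 (0.07) or Mal (-0.05).

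Several myelin and mature genes varied among single MFOL1 cells beyond counting error. The variance of UMIs was 25.8 times that given by counting and depth for Ptgds, 19.0 for Fth1, 13.4 for Cldn11, 10.7 for Mal, 8.94 for Cd81 and 7.17 for Car2. Malat1, a nuclear RNA, had the highest ratio, 69.5. Fos (12.6) and Junb (9.33), early response genes, varied in another way, since Fos was seen in 21.2% of cells and 1 cell held 40 UMIs, or 16.3% of all. The ratio of Junb was 4.37 in TdTom+ and 13.9 in GFP+ cells, where 1 cell held 30 UMIs. After thinning to 2000 UMIs, the median MFOL1 cell held 12 Mal UMIs (quartiles 8 and 16, range 2 to 43) against 7 in the MOL5/6 labels, 6 Car2 UMIs against 9 and 51 Fth1 UMIs against 67.

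Mal served as an axis along which the other genes could be ordered. Over the 273 thinned cells and 247 genes at 500 CPM or more, the Spearman correlation with Mal was among the highest for Cldn11 (0.41 over both libraries, 0.42 in TdTom+ and 0.41 in GFP+ cells), Cnp (0.37), Tspan2 (0.35) and Ptn (0.31). It was lowest for Gatm (-0.45), which makes the precursor of creatine, Fth1 (-0.41, and -0.44 and -0.33 in the 2 libraries), the ferritin heavy chain that stores iron, Car2 (-0.39), a carbonic anhydrase, Apoe (-0.38), Kctd13 (-0.37) and Trf (-0.37). Tspan2 had 0.40 in TdTom+ and 0.20 in GFP+ cells, and Ptn had 0.39 and 0.19. Ptgds (-0.17 in TdTom+ and 0.12 in GFP+ cells) and Mbp (0.08 and -0.11) had opposite signs in the libraries. The values were 0.09 for Synpr and 0.19 for Ctps, both of which were seen in few thinned cells. Mal in thinned cells also followed the UMI total of the cell before thinning, with a correlation of 0.62 (0.59 and 0.66 in the 2 libraries), so these values share depth as well as library.

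**Figure D5:**
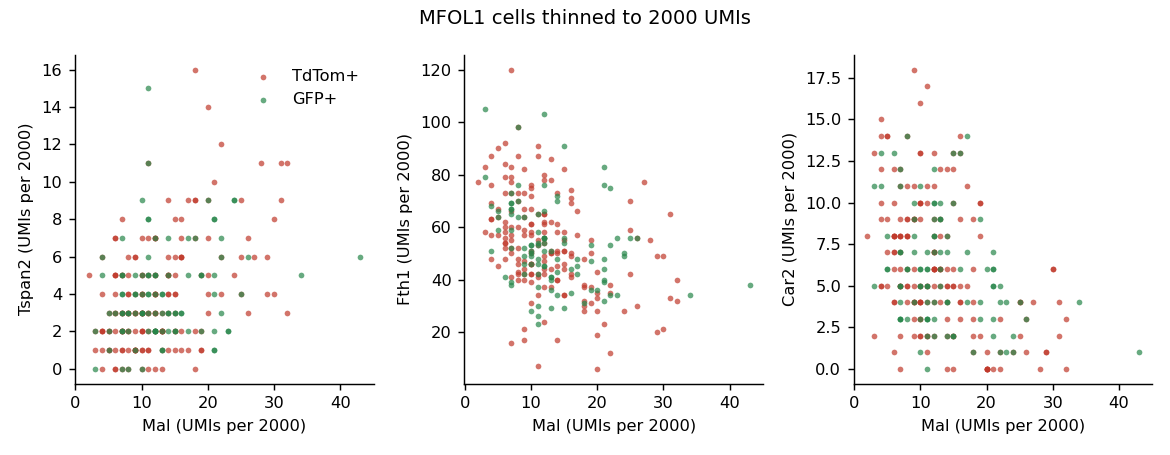
Single MFOL1 cells of the TdTom+ and GFP+ libraries after thinning to 2000 UMIs, with Mal UMIs on the horizontal axes, UMIs of Tspan2, Fth1 or Car2 on the vertical axes and 1 point for each cell. Tspan2 (Spearman 0.35, with 0.40 in TdTom+ and 0.20 in GFP+ cells) is higher where Mal is higher, and Fth1 (-0.41) and Car2 (-0.39) are lower.

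The deep cells were high in Mal. The 26 MFOL1 cells above 8000 UMIs had 10064 CPM of Mal against 6559 CPM in the other 248 MFOL1 cells. Slc9a3r2 was at 425 against 109 CPM, Ctps at 147 against 29.1 CPM, Nfasc at 1313 against 445 CPM and Arpc1b at 649 against 177 CPM. Of 13 tested MOL5/6 markers, 11 were lower in the deep cells by at least 1.5-fold in both libraries and 0 were higher, while of 2825 genes 8.35% were lower and 7.96% higher. This describes cells of 1 cluster, and only 5 of the deep cells were GFP+. Ptgds was at 5821 against 13514 CPM, Car2 at 726 against 3015 CPM, Trf at 575 against 1419 CPM, Apod at 181 against 573 CPM and Fth1, which was past 1.5-fold in the TdTom+ library alone, at 15966 against 26483 CPM. Each of these differences had the same direction in both libraries. For Slc9a3r2 the deep cells were at 398 against 102 CPM in the TdTom+ and at 535 against 120 CPM in the GFP+ library. In the 39 deep cells of the other populations, Slc9a3r2 was at 32.3 CPM against 25.1 CPM in the rest, Ctps at 18.8 against 7.26 CPM and Nfasc at 1183 against 228 CPM. Mal was lower in them, at 1914 against 3040 CPM, and so were Car2, at 2632 against 4186 CPM, and Fth1, at 27070 against 36388 CPM. These 39 cells came from several populations, 10 of them from COP/NFOL, and the part of the populations in these values was not tested. No doublet caller was applied here, and the part of doublets in the deep cells was not tested.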

How the data were processed

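Corpus callosum cells were sorted by reporter and captured with 10x Genomics 3′ v2 chemistry. The study's methods name STAR for alignment, Seurat with canonical correlation for integration of the libraries, Leiden clustering, and transfer of labels from an earlier oligodendrocyte dataset onto the clusters, and the submitters' processing notes name Cell Ranger 2.1.1 and mm10. The authors deposited signal values, each gene's fraction of the cell's UMIs, and counts of total UMIs and genes per cell. UMI counts were recovered by dividing each value by the cell's smallest, and 100% came out whole within 0.01. The test plan assumed counts, so recovered counts were used. 36 other columns of the cell table were not used. UMIs were summed per population and library, scaled to CPM, and compared as log2(CPM + 1), with no test, since there was 1 library per origin. Summed MFOL1 depth was 823949 and 432763 UMIs. Intervals were exact (Poisson, Clopper-Pearson, conditional binomial). A gene was called when past 1.5-fold in both libraries, at a mean of at least 50 CPM (100 CPM between origins). Named genes were the members of 25 fixed lists, the 15 highest and 15 lowest ratios, the 5 highest and lowest of each neighbour and origin comparison, the 10 most variable genes and the 5 most like Synpr. The comparison with the MOL5/6 labels, the deep cells and the Mal axis were chosen after seeing the data. Members and lists were chosen with earlier results of these data known. Scripts were tested on simulated data. Scanpy 1.11.5 (clustering), scipy 1.17.1 (intervals), pandas 2.3.3, numpy 2.4.6 and matplotlib 3.10.9 ran under Python 3.11.15. Some of the named genes are not reported here.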

Additional observations from a re-analysis of the deposited data

How the results depend on the processing

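No paired analysis was possible because each origin had 1 library and the labels were built from the same cells, so ratios within each library are given without a test. A gene at 50 CPM rests on few UMIs in the GFP+ cells of MFOL1, which limits what depth can show. The new cluster that held most MFOL1 cells was 7.89% of TdTom+ cells. The count of genes higher than in all other cells was 414 with no filter on low levels, 34 at a minimum of 200 CPM, 38 at 2-fold and 184 in the GFP+ library alone, and the count of lower genes was 1586, 41, 66 and 316 at these settings, 263 in the TdTom+ library alone and 275 with each other population given the same weight. Against COP/NFOL, 625 genes were lower with median-of-ratios scaling. Between origins, 19 genes were higher and 18 lower without the deep cells, 2040 and 1561 with no filter, and 1 and 0 at 200 CPM, and 18 were lower when the mean of cells was taken. Shares of cells with a UMI were 20.8, 33.2 and 14.6% for Synpr, Slc9a3r2 and Ctps without thinning, 5.47 and 12.0% for Synpr and Slc9a3r2 at 1000 UMIs, and 0.366 and 3.66% for these and 1.1% for Ctps when 2 UMIs were required. The filter and the fold act by their own construction, and for the other settings the cause was not tested. Among the 15 highest and 15 lowest genes over all other cells and the 5 highest and 5 lowest between origins, 0 turned direction. Of their values, 54 of 210 over all other cells and 2 of 50 between origins moved beyond their counting interval. Other named genes were not counted here.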
